A study of Mus musculus with 12 samples.

Results

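The genes described here encode 10 histone demethylases of mouse. They are grouped by a link to lysine 9 or lysine 36 of histone H3, which need not be the main substrate of each, as for Kdm1a. They were taken by symbol, Kdm1a, Kdm2a, Kdm2b, Kdm3a, Kdm3b, Jmjd1c, Kdm4a, Kdm4b, Kdm4c and Kdm4d, from the 23354 genes listed in every library. Their mRNA levels come from stable derivatives of J1, a male mouse embryonic stem cell line kept on inactivated fibroblast feeders in serum with leukemia inhibitory factor. There were 12 libraries in 6 groups of 2. In the overexpression arm the lines carried H3.1K9M or H3.1K36M, histone H3.1 with methionine in place of lysine 9 or lysine 36, against lines carrying wild-type H3.1 (H3.1WT). In the knockdown arm they carried a hairpin against Suv39h1 (shSuv39h1) or Suv39h2 (shSuv39h2), which encode H3K9 methyltransferases of heterochromatin, against the control hairpin shNC. The sources used here give no vectors, no number of clones behind each line and no step that removed feeder cells. Nothing in the labels says that both libraries of a group came from separate cultures, so the p-values below reflect spread from library to library, which may be technical.

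Histone demethylases take methyl groups off lysines that methyltransferases such as Suv39h1, Suv39h2 or Setd2 have modified. Kdm1a (LSD1) is an FAD-dependent amine oxidase that works in the CoREST complex, while the other genes encode JmjC enzymes that use iron, oxygen and 2-oxoglutarate. The KDM2 enzymes act on H3K36me1 and H3K36me2, the KDM3 enzymes on H3K9me1 and H3K9me2, and the KDM4 enzymes on H3K9me3 and, for Kdm4a to Kdm4c, H3K36me3. In mouse embryonic stem cells Kdm3a and Kdm4c are known for keeping pluripotency genes active, and Kdm2b for bringing the Polycomb complex PRC1.1 to CpG islands. Lysine-to-methionine histones of this kind are known to inhibit the methyltransferases of the residue they replace.

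The promoters of Jmjd1c and Kdm4a are shown because these genes moved together in shSuv39h2 lines, as given below, and lie on different chromosomes. Both sequences are from RefSeq on GRCm38.p6, 5′ to 3′ on the strand of the gene, and stop before the transcript. Capitals mark the GC box GGGCGG and the hypoxia response core, ACGTG or GCGTG, on either strand.
Jmjd1c, chr10:67126838-67127087, plus strand: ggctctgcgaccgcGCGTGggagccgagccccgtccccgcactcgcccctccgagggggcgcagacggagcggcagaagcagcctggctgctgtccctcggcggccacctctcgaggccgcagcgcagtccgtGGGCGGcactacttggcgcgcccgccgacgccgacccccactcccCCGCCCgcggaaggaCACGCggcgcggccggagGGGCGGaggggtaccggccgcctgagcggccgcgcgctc
Kdm4a, chr4:118180091-118180293, minus strand: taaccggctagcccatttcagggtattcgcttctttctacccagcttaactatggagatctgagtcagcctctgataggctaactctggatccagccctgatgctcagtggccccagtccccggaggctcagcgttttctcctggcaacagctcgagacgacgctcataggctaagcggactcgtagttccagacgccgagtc
The 250 bases before the Jmjd1c start at 67127088 held 40 CpG, 3 GC boxes and 2 GCGTG. That start lies inside the annotated gene, downstream of its outermost start at 67096125. The 203 bases of Kdm4a, which end 48 bases before its start at 118180043, held 11 CpG and neither motif. They also held no CCAAT box. The E-box CACGTG, itself a longer form of the core, and the ETS motif CCGGAAG were searched on both strands too and were absent. Among 32851 RefSeq windows of 300 bases over all genes, reaching from 250 bases before a start to 50 after it, 35.7% held GGGCGG, 43.8% ACGTG or GCGTG, 37.4% held CCAAT, 7.15% held CACGTG and 8.86% held CCGGAAG. The table gave such windows for 7 of the 10 genes, 14 in all, and none for Kdm2a, Kdm3b and Kdm4b. Over their full 300-base windows, Jmjd1c at this start held 4 GC boxes and 47 CpG, and Kdm4a held 1 CCAAT and 13 CpG, where the median window held 7 CpG. CpG content ranged widely within a gene, with 49 CpG in a Kdm2b window and 0 in a window of Kdm3a and of Kdm4c. Another Jmjd1c window, at the start 67185750, is not printed and held 13 CpG, 0 GC boxes and 0 hypoxia response cores.

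Kdm1a (chromosome 4, 136550540 to 136602723 on GRCm38), the LSD1 gene, was the most abundant of the 10 per transcript length. Levels are in FPKM, fragment numbers scaled to transcript length and to library size, as the authors deposited them. Kdm1a stood at 71.5 and 100.5 FPKM in H3.1K9M, 95.1 and 95.4 in H3.1K36M and 97.7 and 100.7 in H3.1WT, and at 97.2 and 105.2 in shSuv39h1, 96.1 and 92.3 in shSuv39h2 and 92.7 and 98.0 in shNC. Apart from the first H3.1K9M library, every library lay between 92.3 and 105.2 FPKM. Its mean over the 12 libraries, 95.2 FPKM, lay above that of 94.3% of the 13109 genes that passed the filter on low values, at least 1 FPKM in at least 2 libraries. The other 8 genes that passed averaged between 15.5 (Kdm2a) and 29.0 FPKM (Kdm3a), above 65.4% and 79.9% of those genes.

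Kdm2a (chromosome 19, 4314419 to 4398285) and Kdm2b (chromosome 5, 122870665 to 122989823) encode the CXXC-type H3K36 demethylases that bind unmethylated CpG islands. Kdm2a was at 15.7 and 14.2 FPKM in H3.1K9M, 14.0 and 14.1 in H3.1K36M and 14.9 and 14.8 in H3.1WT, and at 14.4 and 13.8 in shSuv39h1, 21.6 and 21.3 in shSuv39h2 and 12.99 and 14.2 in shNC. Both shSuv39h2 libraries stood clear of the other 10, which lay between 12.99 and 15.7 FPKM. Kdm2b was at 23.5 and 23.2 FPKM in H3.1K9M, 23.2 and 21.3 in H3.1K36M and 22.2 and 24.3 in H3.1WT, and at 23.3 and 24.5 in shSuv39h1, 27.7 and 33.6 in shSuv39h2 and 22.9 and 24.5 in shNC. The shSuv39h2 libraries were again the highest of the 12, and no other neighbours in the order of the 6 group means were separated. Of the exonic bases of Kdm2b, 8.74% are shared with other annotated genes, among them Rnf34 on the opposite strand, and the sources used here do not say whether counting used strand.

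The KDM3 family has 3 genes here. Kdm3a (chromosome 6, 71588972 to 71632990), an H3K9me1 and H3K9me2 demethylase induced by hypoxia, was at 26.8 and 28.6 FPKM in H3.1K9M, 27.9 and 28.7 in H3.1K36M and 32.8 and 29.6 in H3.1WT, and at 28.5 and 26.8 in shSuv39h1, 31.1 and 27.8 in shSuv39h2 and 32.0 and 27.9 in shNC. It was the steadiest gene of the set, with a coefficient of variation of 6.77% over 12 libraries and no separated neighbours among the 6 groups. Kdm3b (chromosome 18, 34777047 to 34838660), its close relative, was at 15.6 and 18.1 FPKM in H3.1K9M, 14.2 and 14.6 in H3.1K36M and 15.1 and 16.9 in H3.1WT, and at 16.5 and 16.9 in shSuv39h1, 18.1 and 18.5 in shSuv39h2 and 15.6 and 14.6 in shNC. H3.1K36M was lowest and shSuv39h2 highest, each apart from its neighbour in the order. The opposite-strand transcript Gm26538 covers 24.6% of the exonic bases of Kdm3b, so part of its reads could belong to either. Jmjd1c (chromosome 10, 67096125 to 67256326), a family member whose demethylase activity is disputed, was at 21.5 and 22.0 FPKM in H3.1K9M, 14.7 and 14.5 in H3.1K36M and 20.3 and 19.3 in H3.1WT, and at 22.2 and 20.1 in shSuv39h1, 23.7 and 22.8 in shSuv39h2 and 18.1 and 17.2 in shNC. In the order H3.1K36M, shNC, H3.1WT, shSuv39h1, H3.1K9M and shSuv39h2, from low to high, its libraries overlapped between H3.1WT and shSuv39h1 and between shSuv39h1 and H3.1K9M, and the other 3 neighbouring pairs were separated.

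The KDM4 enzymes remove H3K9me3, the mark laid down by Suv39h1 and Suv39h2. Kdm4a (chromosome 4, 118136957 to 118180043), which has Tudor domains that read methylated histones, was at 20.1 and 22.6 FPKM in H3.1K9M, 20.3 and 19.7 in H3.1K36M and 20.8 and 22.1 in H3.1WT, and at 23.1 and 23.3 in shSuv39h1, 27.2 and 27.3 in shSuv39h2 and 20.1 and 21.2 in shNC. Both knockdown lines lay above every library of the overexpression arm, with shSuv39h2 above shSuv39h1. Kdm4b (chromosome 17, 56326062 to 56402870) was at 13.2 and 17.2 FPKM in H3.1K9M, 11.6 and 11.5 in H3.1K36M and 16.7 and 14.6 in H3.1WT, and at 18.2 and 18.98 in shSuv39h1, 21.9 and 18.97 in shSuv39h2 and 18.5 and 14.2 in shNC. Only H3.1K36M was separated from its neighbour in the order, as the lowest group. Kdm4c (chromosome 4, 74242497 to 74405860) was at 18.9 and 33.0 FPKM in H3.1K9M, 20.7 and 19.6 in H3.1K36M and 23.4 and 21.6 in H3.1WT, and at 23.2 and 26.3 in shSuv39h1, 34.3 and 31.0 in shSuv39h2 and 30.5 and 24.8 in shNC. The H3.1K9M libraries spanned nearly the whole range seen over the 12, and Kdm4c had the widest scatter of the 9 genes that passed, between 18.9 and 34.3 FPKM. Kdm4d (chromosome 9, 14462548 to 14500482), a shorter family member known mainly from testis, lay between 0.101 and 0.324 FPKM in all libraries and did not pass the filter. That is about 6.47 to 18.4 fragments per library, against at least 1150 for each of the other 9 genes. Small differences in Kdm4d could therefore not be detected at this depth. Without the filter its adjusted p-values against the controls (limma) lay between 0.614 and 0.986.

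**Figure D1:**
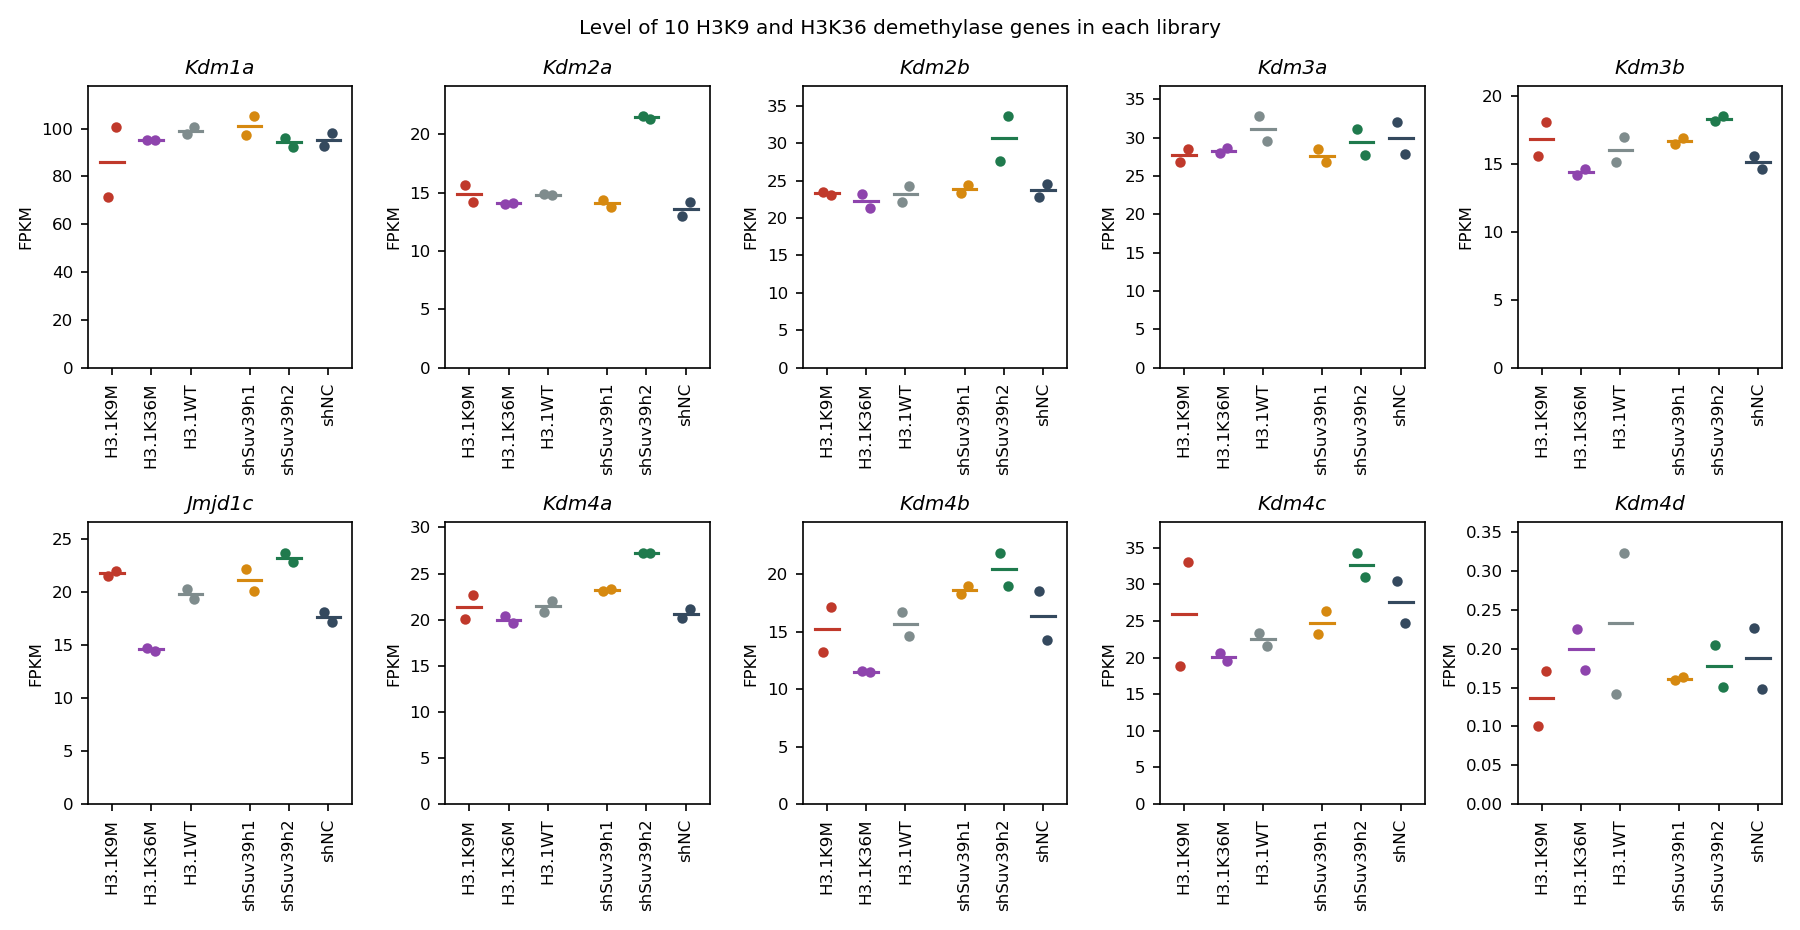
FPKM of each of the 10 demethylase genes, with a panel for each gene, a point for each library and a line at the mean of the 2 libraries of a group. By group mean, Kdm2b, Kdm3b, Jmjd1c, Kdm4a, Kdm4b and Kdm4c are lowest in H3.1K36M. The same genes and Kdm2a are highest in shSuv39h2. The first H3.1K9M library of Kdm1a, at 71.5 FPKM, stands below all others of that gene.

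Over the 9 genes that passed the filter, 13 of the 45 neighbouring pairs of group means, or 28.9%, had libraries that did not overlap, beside 24.6% of such pairs over all 13109 genes. Summed over the 10 genes, the level was 240.7 ± 1.74 FPKM in H3.1K36M and 253.1 ± 37.2 in H3.1K9M, against 264.1 ± 0.0700 in H3.1WT (SD, n = 2 each). It was 271.3 ± 6.61 in shSuv39h1 and 297.8 ± 5.78 in shSuv39h2, against 260.2 ± 4.89 FPKM in shNC. The summed KDM4 level was 83.6 and 77.4 FPKM in shSuv39h2, against 69.3 and 60.3 in shNC. The KDM2 sum was 49.2 and 55.0 FPKM in shSuv39h2, against 35.9 and 38.7 in shNC, and the KDM3 sum was 56.8 and 57.7 in H3.1K36M, against 68.2 and 65.8 in H3.1WT. Each of these sums was separated from that of its control, except that H3.1K9M, at 226.8 and 279.5 FPKM over all 10 genes, spanned both H3.1WT and H3.1K36M.

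The make-up of the KDM3 family differed between groups in the shares of Jmjd1c and Kdm3a. Shares within a family are not independent, since a lower share of a gene raises those of its paralogues. Jmjd1c made up 25.9% and 25.1% of the family's summed FPKM in H3.1K36M and 33.7% and 32.1% in H3.1K9M, against 29.8% and 29.4% in H3.1WT. Its share was 33.0% and 31.5% in shSuv39h1 and 32.5% and 33.0% in shSuv39h2, against 27.6% and 28.7% in shNC. Kdm3a had a mean share of 49.4% ± 0.382 in H3.1K36M and 41.8% ± 0.189 in H3.1K9M, against 46.5% ± 2.23 in H3.1WT (SD, n = 2 each). Its own level was not higher in H3.1K36M, at 28.3 ± 0.523 FPKM against 31.2 ± 2.29 in H3.1WT. In the knockdown arm the mean share of Kdm3a was 42.3% ± 0.262 in shSuv39h1 and 41.4% ± 1.74 in shSuv39h2, against 47.7% ± 1.38 in shNC. Kdm3b stayed between 22.1% and 26.8% in all libraries. Within the KDM4 family, Kdm4b had a mean share of 22.2% ± 0.495 in H3.1K36M, against 26.1% ± 1.66 in H3.1WT (SD, n = 2 each). Within the KDM2 family Kdm2a made up 41.3% ± 3.52 of the sum in shSuv39h2, against 36.5% ± 0.346 in shNC (SD, n = 2 each). These shares were not tested.

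**Figure D2:**
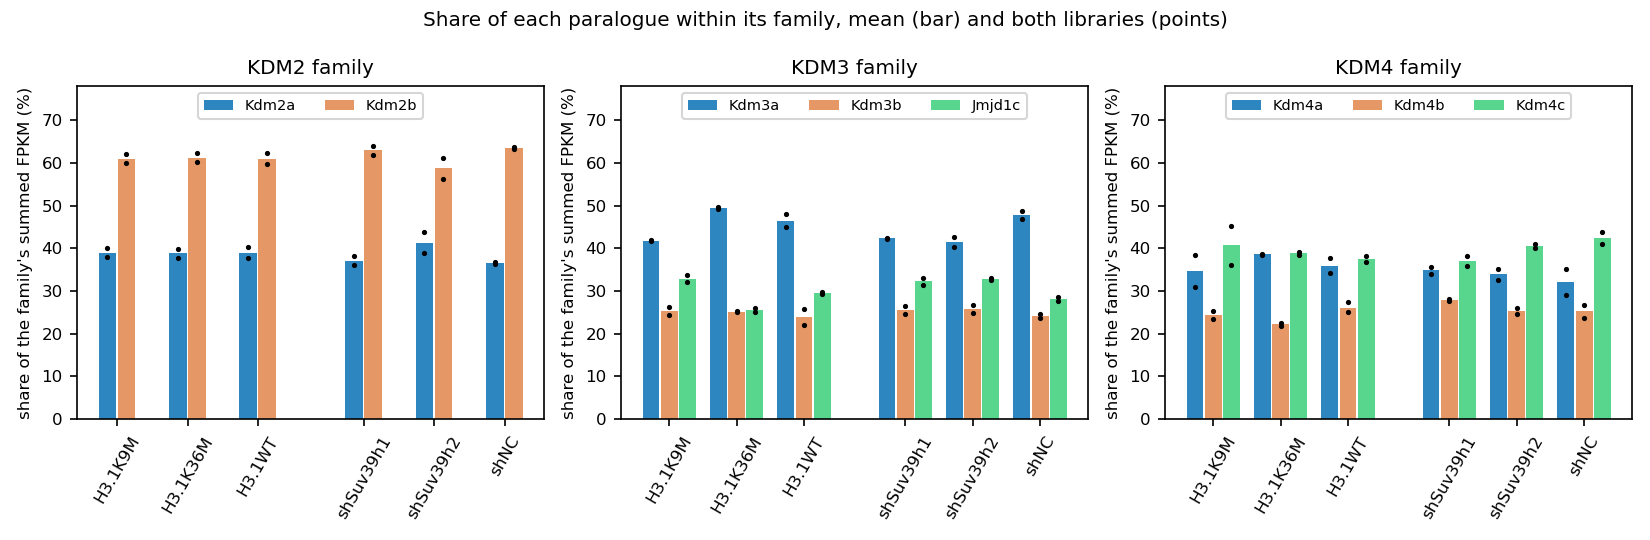
Share of each paralogue in the summed FPKM of its family in percent, as the mean of a group (bar) and its 2 libraries (points), with Kdm4d left out since it is under 1% of the KDM4 sum. Jmjd1c has its lowest share, 25.5% on average, in H3.1K36M, while Kdm3a has its highest, 49.4%, there. The level of Kdm3a itself was not higher in H3.1K36M, at 28.3 FPKM on average against 31.2 in H3.1WT.

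Differences between groups were tested with limma, a linear model with moderated variances, on log2(FPKM + 1) over all 13109 genes and 12 libraries. p-values were adjusted by the Benjamini-Hochberg method over all tested genes, and a gene with an adjusted p under 0.05 is said to rise or fall. Kdm4d took no part in these tests, so counts below are out of 9 genes. All 10 embryonic stem cell markers, among them Pou5f1, Nanog and Sox2, reached at least 1 FPKM in every library. Of 30 fibroblast feeder markers, 28 or 29 did so, with summed levels from 875.5 FPKM in the second shSuv39h1 library to 2962 FPKM in the first H3.1K9M library. Depth, estimated from the steps between low values, was 19600000 to 25900000 fragments per library. Libraries of one group differed from each other with an SD over genes, on the log2 scale, of 0.41 in H3.1K9M and 0.345 in shNC, and of 0.223 to 0.26 in the other groups. Suv39h2 fell to 1.68 ± 0.104 FPKM in shSuv39h2, against 4.79 ± 0.0106 in shNC (SD, n = 2, limma adjusted p = 0.000304). Suv39h1 was at 5.01 ± 0.136 FPKM in shSuv39h1, against 8.05 ± 0.743 in shNC (SD, n = 2), and did not pass (limma adjusted p = 0.0877).

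In H3.1K9M, set against H3.1WT to see which transcripts differ when H3K9 methylation is targeted, none of the 9 genes passed the test, and 0.313% of all tested genes did. Adjusted p-values of the 9 genes lay between 0.535 and 0.988 by limma, and no gene had an unadjusted p under 0.05, which 11.2% of all genes had. Log2 fold changes lay between −0.22 for Kdm1a (95% confidence interval −0.52 to 0.07) and 0.15 for Kdm4c (−0.32 to 0.61). Jmjd1c averaged 21.8 ± 0.338 FPKM in H3.1K9M, against 19.8 ± 0.706 in H3.1WT (SD, n = 2 each), and was the gene whose libraries lay higher without overlap, as 14.6% of all genes did, while Kdm3a, at 27.7 ± 1.28 against 31.2 ± 2.29 FPKM, was the gene whose libraries lay lower, as 20.6% did. The median over the 9 genes was 0.01, beside −0.01 over all genes. The value of Kdm1a rests on the first H3.1K9M library: without it the log2 fold change was 0.02, and without the second H3.1K9M library it was −0.47 with a limma adjusted p of 0.0316. In that first library the feeder markers summed to 2962 FPKM, against 1587 in the second and 1024 and 1674 in H3.1WT. With the mean feeder marker level in the model, Kdm1a stood at −0.07 (limma adjusted p = 0.856).

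In H3.1K36M, set against H3.1WT to ask the same of H3K36 methylation, Jmjd1c fell and none of the 9 genes rose. Of all tested genes 4.84% passed, among them 1.74% as lower. Jmjd1c averaged 14.6 ± 0.180 FPKM in H3.1K36M, against 19.8 ± 0.706 in H3.1WT (SD, n = 2 each), a ratio of 0.736 and a log2 fold change of −0.42 (SE 0.0779, limma adjusted p = 0.0171). Kdm4b showed a ratio of the same size, 11.5 ± 0.0384 against 15.7 ± 1.46 FPKM, with a log2 fold change of −0.41 and a larger SE of 0.147, and did not pass (limma adjusted p = 0.155). The other 7 genes lay between −0.15 (Kdm4c) and −0.06 (Kdm1a), with adjusted p-values of 0.404 or more by limma. The log2 fold changes of all 9 genes were below 0, with a median of −0.13 beside 0.03 over all genes. In 8 of the 9, all but Kdm2b, the H3.1K36M libraries lay below the H3.1WT libraries without overlap, as they did for 27.6% of all tested genes.

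The H3.1K36M lines also differed in their feeder markers, which summed to 2186 and 2129 FPKM, against 1024 and 1674 in H3.1WT. All 29 tested markers had positive log2 fold changes, with a median of 0.72, and Postn, Col6a2 and Col3a1 rose. In bulk RNA fewer cells of a type and less RNA per cell cannot be told apart. With the mean feeder marker level in the model, Jmjd1c stood at −0.40 (limma adjusted p = 0.0528), Kdm4b at −0.16 (limma adjusted p = 0.561), and Kdm1a and Kdm4c changed sign, to 0.12 and 0.26. The fall of Jmjd1c kept its size without each of the 4 libraries in turn, between −0.45 and −0.38, but lost the call each time (limma adjusted p from 0.0749 to 0.173).

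Set directly against H3.1K9M, H3.1K36M had lower Jmjd1c, at 14.6 ± 0.180 FPKM against 21.8 ± 0.338 (SD, n = 2 each), or −0.55 on the log2 scale (limma adjusted p = 0.00286), in a comparison in which 8.24% of all genes passed. None of the other 8 genes passed. Kdm4b (−0.36, limma adjusted p = 0.176) and Kdm3b (−0.21, limma adjusted p = 0.205) had unadjusted p-values under 0.05, as 23.2% of all genes had. Both mutants were compared with the same H3.1WT libraries above, whereas this contrast uses no H3.1WT library to set the difference. Without the second H3.1K36M library Jmjd1c stood at −0.53 (limma adjusted p = 0.0505).

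**Figure D3:**
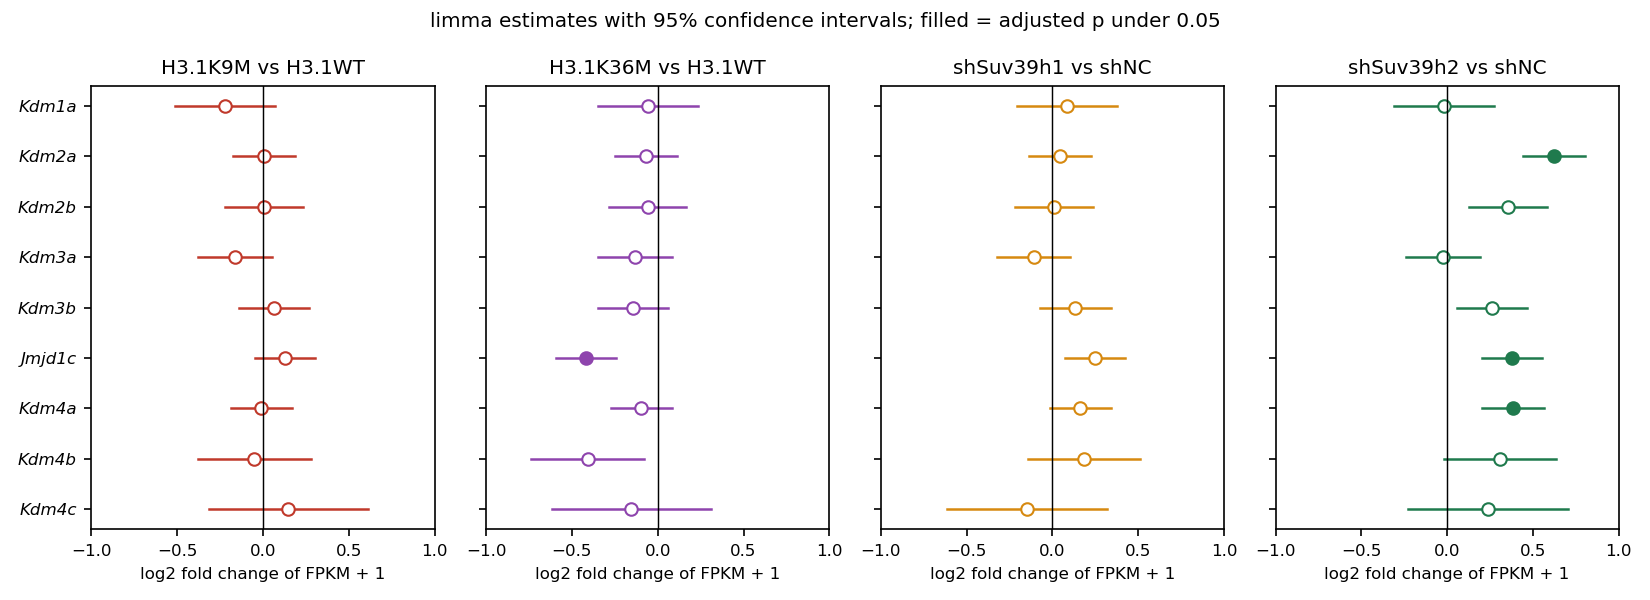
Log2 fold change of FPKM + 1 for the 9 tested demethylase genes in each line against its control, as limma estimates (circles) with 95% confidence intervals (lines). Filled circles passed at an adjusted p under 0.05, Jmjd1c in H3.1K36M and Kdm2a, Jmjd1c and Kdm4a in shSuv39h2.

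In shSuv39h1, set against shNC, none of the 9 genes passed, and 0.145% of all tested genes did. The smallest adjusted p was that of Jmjd1c, which averaged 21.1 ± 1.45 FPKM in shSuv39h1, against 17.6 ± 0.690 in shNC (SD, n = 2 each), a log2 fold change of 0.25 (SE 0.0779, limma adjusted p = 0.311). It was the only one of the 9 with an unadjusted p under 0.05, which 10.6% of all genes had. Kdm4a (23.2 ± 0.171 against 20.6 ± 0.718 FPKM) and Kdm3b (16.7 ± 0.275 against 15.1 ± 0.688 FPKM) also lay above shNC without overlap, so that 3 of 9 did, beside 26.8% of all genes. The median log2 fold change of the 9 was 0.08, beside 0.04 over all genes. The shSuv39h1 libraries had feeder marker sums of 1279 and 875.5 FPKM, against sums of 1231 and 1622 FPKM for shNC, and none of 29 had a log2 fold change above 0 (median −0.42). With their mean level in the model Jmjd1c stood at 0.24 (limma adjusted p = 0.237), Kdm4c at −0.39, where it was −0.15 without it, and Kdm1a changed sign to −0.017.

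In shSuv39h2, also set against shNC, Kdm2a, Jmjd1c and Kdm4a rose and none of the 9 genes fell. Of all tested genes 10.0% passed, 5.35% as higher and 4.69% as lower. Kdm2a averaged 21.4 ± 0.161 FPKM in shSuv39h2, against 13.6 ± 0.872 in shNC (SD, n = 2 each), a ratio of 1.58 and a log2 fold change of 0.62 (SE 0.0809, limma adjusted p = 0.00269). Jmjd1c averaged 23.3 ± 0.646 against 17.6 ± 0.690 FPKM, with a log2 fold change of 0.38 (SE 0.0779, limma adjusted p = 0.0158). Kdm4a averaged 27.2 ± 0.0368 against 20.6 ± 0.718 FPKM, with a log2 fold change of 0.38 (SE 0.0798, limma adjusted p = 0.0165). Jmjd1c and Kdm4a are the genes whose promoters are printed above, with 3 GC boxes in the Jmjd1c stretch and 0 in that of Kdm4a. The other Jmjd1c window, which is not printed, also held 0, so this contrast depends on the start chosen. The feeder markers summed to 1670 and 1335 FPKM in shSuv39h2, against 1231 and 1622 in shNC, and of 29 tested 2 fell, Thy1 and Mmp2, with 19 above 0.

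Of the 6 genes that did not pass in shSuv39h2, Kdm2b came closest, at 30.7 ± 4.21 against 23.7 ± 1.16 FPKM, or 0.35 on the log2 scale (limma adjusted p = 0.0577). Kdm3b (0.26, adjusted p = 0.105), Kdm4b (0.31, adjusted p = 0.222) and Kdm4c (0.24, adjusted p = 0.521) followed by limma. Without single libraries Kdm2b lay between 0.22 and 0.49, Kdm4b between 0.13 and 0.49 and Kdm4c between 0.096 and 0.38. The lowest value was that without the second shSuv39h2 library for Kdm2b, and without the second shNC library for Kdm4b and Kdm4c. Kdm2b passed without the first shSuv39h2 library (limma adjusted p = 0.0496) and with the feeder marker mean in the model (limma adjusted p = 0.0404). In 7 of 9 genes the shSuv39h2 libraries lay above the shNC libraries without overlap, as they did for 29.5% of all genes, and the median log2 fold change was 0.31, beside 0.04 over all genes. The exceptions were Kdm1a, at 94.2 ± 2.69 against 95.4 ± 3.76 FPKM, and Kdm3a, at 29.4 ± 2.38 against 29.98 ± 2.92 FPKM. Their log2 fold changes of −0.017 and −0.024 had 95% confidence intervals of −0.31 to 0.28 and −0.24 to 0.19.

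The calls of Jmjd1c and Kdm4a in shSuv39h2 rest on both libraries of that line. Without the first or the second shSuv39h2 library the limma adjusted p was 0.102 or 0.0701 for Jmjd1c and 0.0896 or 0.0917 for Kdm4a, which was also at 0.0772 without the first shNC library, while Kdm2a passed without each library in turn. Jmjd1c also lost its call with quantile scaling (0.31, limma adjusted p = 0.0533) and in a fit of the knockdown arm alone (0.38, limma adjusted p = 0.0561), where Kdm2a and Kdm4a passed. Leaving the first H3.1K9M library out of the shared variance brought 5 genes past the threshold, with Kdm2b and Kdm3b added (limma adjusted p = 0.0469 and 0.0483).

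The rise of Kdm2a lay on a chromosome that stood higher as a whole in shSuv39h2. Over the 423 tested genes of chromosome 19 the median log2 fold change was 0.34, with 367 above 0, 146 called higher and 9 lower. Over the other autosomes, chromosome 11 left out, the 17 medians lay between 0.02 and 0.09. Kdm2a, at 0.62, was 0.28 above the median of its chromosome and higher than 85.3% of the genes there. With each library centred on the median of each chromosome, Kdm2a stood at 0.28 and did not pass (limma adjusted p = 0.0587), whereas Jmjd1c on chromosome 10 (0.34, adjusted p = 0.0359) and Kdm4a on chromosome 4 (0.35, adjusted p = 0.0214) still passed. The part of the chromosome in the Kdm2a value and that of the Suv39h2 hairpin cannot be told apart in these libraries.

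**Figure D4:**
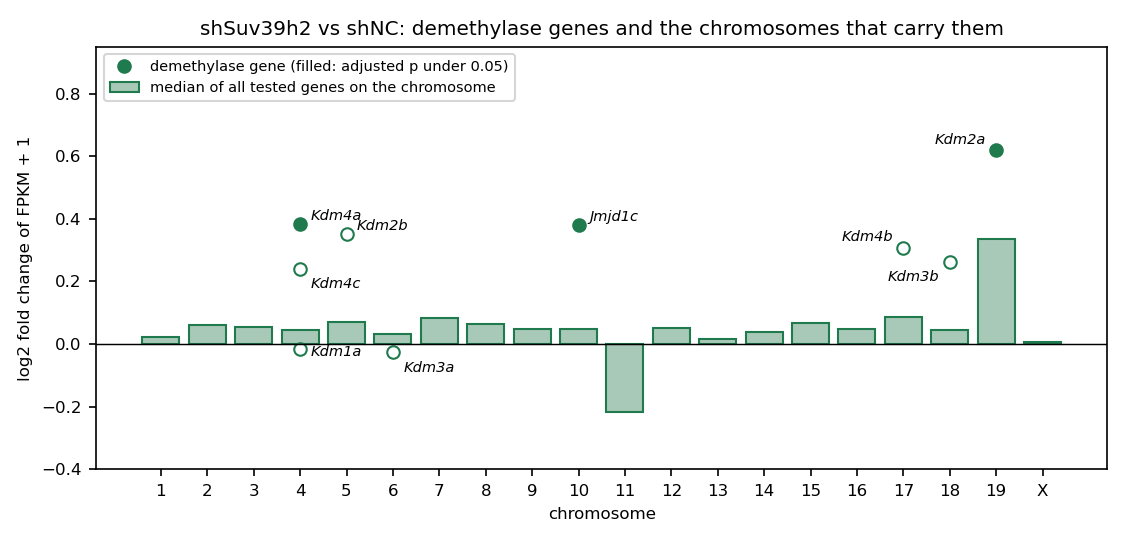
Log2 fold change of FPKM + 1 in shSuv39h2 against shNC for the 9 tested demethylase genes (circles, filled where the adjusted p was under 0.05) and the median of all tested genes on each chromosome (bars, autosomes and X). The bar of chromosome 19, at 0.34, carries Kdm2a, the bar of chromosome 11 is at −0.22 and carries none of the genes, and Jmjd1c and Kdm4a lie on chromosomes with medians of 0.05 and 0.04.

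Set directly against shSuv39h2, shSuv39h1 had lower Kdm2a, at 14.1 ± 0.458 FPKM against 21.4 ± 0.161 (SD, n = 2 each), or −0.57 on the log2 scale (limma adjusted p = 0.00555), where 6.56% of all genes passed. After centring on the chromosome Kdm2a stood at −0.28 (limma adjusted p = 0.0837). The other 8 genes did not pass, and Jmjd1c, which was above shNC in both knockdown lines, stood at −0.13 between them (95% confidence interval −0.31 to 0.04). Of the 29 feeder markers 4 were above 0 in this comparison, with a median of −0.46, and with their mean level in the model Kdm4c passed as well as Kdm2a. Kdm2b (−0.34, adjusted p = 0.0804) and Kdm4a (−0.22, adjusted p = 0.138) had unadjusted p-values under 0.05 by limma, as 21.7% of all genes had. The call of Kdm2a was lost without either shSuv39h1 library or the first shSuv39h2 library (limma adjusted p = 0.0541, 0.0703 and 0.0542).

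As background, H3.1WT was set against shNC, the controls of the arms. None of the 9 genes passed, and 0.336% of all tested genes did. Their log2 fold changes lay between −0.28 and 0.16, with a smallest adjusted p of 0.472 by limma and no unadjusted p under 0.05, which 11.4% of all genes had. Jmjd1c, at 19.8 ± 0.706 FPKM in H3.1WT against 17.6 ± 0.690 in shNC (SD, n = 2 each), and Kdm2a lay higher in H3.1WT without overlap, as 23.1% of all genes did, and Kdm4c lay lower, as 16.3% did.

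The genes most alike to those that passed were sought over the 12 libraries, with the mean of each arm removed. They are named by Pearson's r of log2(FPKM + 1), a description over libraries that share groups and depth. For Jmjd1c these were Wdr19, Chd2 and Smpd3, with r of 0.958, 0.957 and 0.954. The chromatin remodeller gene Chd2 averaged 9.86 FPKM in H3.1K36M and 15.1 in H3.1K9M, against 13.3 in H3.1WT, and 14.8 in shSuv39h1 and 17.3 in shSuv39h2, against 13.2 in shNC. The order of its 6 group means was that of Jmjd1c, which a choice by high r in the same libraries favours. In Wdr19 and Smpd3 the order differed, with H3.1K9M below shSuv39h1 on average. For Kdm2a they were Rps6kb2 (r = 0.976) and Cuedc2 (r = 0.965), both on chromosome 19, and Pou2f1 on chromosome 1 (r = 0.963). For Kdm4a they were Aldh18a1 and Atl3 on chromosome 19 and Yars on chromosome 4, with r of 0.967, 0.957 and 0.957. Among the members themselves, the highest r on this scale were 0.85 between Kdm3b and Kdm4a and 0.846 between Kdm2a and Kdm2b, and Kdm1a reached no more than 0.291 with any other member.

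Other genes of the same pathways were taken from lists, whose counts stand beside those of all genes given above. Of 16 other histone demethylases, none passed in H3.1K9M. In H3.1K36M the Y-linked H3K4 demethylase gene Kdm5d rose, at 1.89 ± 0.0541 against 0.761 ± 0.00323 FPKM, and the H3K27 demethylase gene Kdm6b fell, at 10.6 ± 0.403 against 14.7 ± 0.292 FPKM (SD, n = 2 each, limma adjusted p = 0.00583 and 0.0337). Uty, the Y-linked relative of Kdm6a, fell to 1.16 ± 0.187 FPKM in shSuv39h1 and 0.634 ± 0.117 in shSuv39h2, against 2.57 ± 0.0149 in shNC (SD, n = 2 each). The 6 tested genes of chromosome Y had a median log2 fold change of −1.43 in shSuv39h2, with 5 lower, and −0.74 in shSuv39h1, with 3 lower. Uty itself stood at −1.13 and −0.73 on that scale.

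Partners of the demethylases moved in few cases. Of 12 tested genes of the LSD1-CoREST complex, Phf21a, whose product binds unmethylated H3K4, fell in H3.1K36M, at 5.93 ± 0.168 against 10.4 ± 0.379 FPKM, and rose in shSuv39h2, at 14.4 ± 1.33 against 10.1 ± 2.19 FPKM (SD, n = 2 each, limma adjusted p = 0.0145 and 0.0437). No gene of that list passed in H3.1K9M or shSuv39h1. Of 9 PRC1.1 partners of Kdm2b, Bcorl1 rose (8.0 against 5.07 FPKM on average) and its paralogue Bcor fell (7.26 against 11.5 FPKM) in H3.1K36M, and Ring1, a ubiquitin ligase subunit, rose in shSuv39h2 (4.30 against 2.69 FPKM). Their adjusted p-values were 0.0167, 0.0227 and 0.0434 by limma, and no partner passed in H3.1K9M or shSuv39h1.

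Of 15 genes that make or use 2-oxoglutarate, the cosubstrate of JmjC enzymes, Idh1 rose in H3.1K36M, at 44.6 ± 1.39 against 33.4 ± 0.293 FPKM (SD, n = 2 each, limma adjusted p = 0.0368). In shSuv39h2 the transaminase genes Got1 and Psat1 and the isocitrate dehydrogenase subunit gene Idh3b rose, by 0.65, 0.79 and 0.27 on the log2 scale (limma adjusted p = 0.0111, 0.0373 and 0.0279). Got1 and Psat1 lie on chromosome 19, whose median was 0.34 in this line, and stood at 0.31 and 0.45 after centring on it (limma adjusted p = 0.188 and 0.239). No gene of that list fell in any line, and none passed in H3.1K9M or shSuv39h1. Of 23 hypoxia response genes Pdk1 rose in shSuv39h2, at 50.5 ± 3.61 against 35.7 ± 1.70 FPKM (SD, n = 2 each, limma adjusted p = 0.0311), and no other passed in any line against its control. In H3.1K36M Pdk1 was at 27.8 ± 0.453 against 39.1 ± 0.820 FPKM (SD, n = 2 each) and did not pass (limma adjusted p = 0.0535), while Kdm3a, itself known as a hypoxia-induced gene, stood at −0.13 on the log2 scale in H3.1K36M and −0.02 in shSuv39h2.

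Tcl1, Tfcp2l1 and Zfp57 are known targets of Kdm3a and Nanog of Kdm4c in mouse embryonic stem cells. In H3.1K36M, where Kdm3a and Kdm4c themselves did not pass, 3 of these 4 genes rose. Nanog averaged 375.7 ± 3.39 FPKM in H3.1K36M, against 191.8 ± 10.7 in H3.1WT, Tfcp2l1 33.8 ± 0.8002 against 17.7 ± 1.23, and Zfp57 153.9 ± 0.373 against 121.3 ± 1.80 (SD, n = 2 each), with limma adjusted p-values of 0.0129, 0.00534 and 0.0471. Tcl1, at 42.0 ± 0.480 against 30.9 ± 2.31 FPKM, did not pass. In H3.1K9M none passed, with Nanog at 122.6 ± 18.5 against 191.8 ± 10.7 FPKM (SD, n = 2 each, limma adjusted p = 0.227). In shSuv39h2 Zfp57 rose, at 178.5 ± 0.574 against 140.5 ± 9.12 FPKM (SD, n = 2 each, limma adjusted p = 0.0282), and in shSuv39h1 none passed. Among early lineage genes, 6 of 9 fell in H3.1K36M, with Cdx2 at 0.184 against 3.45 FPKM and T at 0.812 against 9.37 FPKM on average. H3.1WT itself stood apart from the other control here, with Cdx2 at 3.45 against 0.155 FPKM and T at 9.37 against 0.690 FPKM in shNC, and 4 of the 9 genes passing as higher in H3.1WT than in shNC. Gata4 rose in shSuv39h2. Of the 10 embryonic stem cell markers, Nanog rose in H3.1K36M, and Klf4, Pou5f1 and Utf1 rose in shSuv39h2. None of either list passed in H3.1K9M or shSuv39h1.

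Methyltransferases that oppose these enzymes moved as follows. Suv39h1 fell in H3.1K36M, at 7.25 ± 0.467 against 11.3 ± 1.38 FPKM (SD, n = 2 each, limma adjusted p = 0.0163). In shNC, the control of the other arm, Suv39h1 was at 8.05 ± 0.743 FPKM. Ehmt2, which encodes the H3K9me1 and H3K9me2 methyltransferase G9a, rose in shSuv39h2, at 70.6 ± 1.46 against 56.6 ± 5.01 FPKM (SD, n = 2 each, limma adjusted p = 0.0381). No other of the 6 H3K9 methyltransferase genes passed against a control, apart from the targeted Suv39h2. None of the 7 H3K36 methyltransferase genes, Setd2 and Nsd1 included, passed in any line, with Setd2 at 18.6 ± 0.389 FPKM in H3.1K36M against 16.7 ± 0.284 in H3.1WT (SD, n = 2 each, limma adjusted p = 0.294).

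Centring each library on the median of each chromosome also bore on these lists. In shSuv39h2 the calls of Phf21a, Ring1, Idh3b, Pdk1, Zfp57 and Ehmt2, on chromosomes 2 and 17, were lost along with those of Got1 and Psat1, with limma adjusted p-values from 0.0631 (Pdk1) to 0.1235 (Ehmt2) for these 6. Their chromosomes had medians of 0.06 and 0.09. Klf4, Pou5f1, Utf1 and Gata4 still passed in that line. Uty stood at 0.30 in shSuv39h2 and 0.044 in shSuv39h1 after centring on chromosome Y, and did not pass. Only 6 genes of chromosome Y were tested, Uty and Kdm5d among them, so each helps to set the median it is centred on. Centring therefore cannot separate either gene from its chromosome. In H3.1K36M Idh1 and Zfp57 lost their calls (limma adjusted p = 0.0590 and 0.0666), and Kdm5d, Kdm6b, Phf21a, Bcorl1, Bcor, Tfcp2l1, Nanog and Suv39h1 still passed. The values of Idh1 and Zfp57 moved little, from 0.406 to 0.365 and from 0.340 to 0.335. Their chromosomes had medians of 0.036 and 0.012 in H3.1K36M.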

How the data were processed

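The authors deposited FPKM for each gene symbol, in 1 file per library. Per the submitters' processing notes, the genome build was mm10 and the tools were Cuffdiff 2.2.1 and TopHat2 2.0.13, without the role and settings of each, and the annotation and any scaling between libraries are not stated in the sources used here. RNA was extracted with Trizol and captured as mRNA, and the labels' protocols name both NEBNext Ultra and TruSeq v2 kits without saying which library had which. A pair of genes not listed in all files, Nolc1 and Inpp5d, was not analysed here.

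FPKM are not counts, so limma 3.58.1 in R 4.3.3 was fitted to log2(FPKM + 1), with a pseudocount of 1, an intensity trend and 6 group means, which left 6 residual degrees of freedom beside prior degrees of freedom of 3.66. All groups share an estimate of the spread, which may understate p-values in lines with a wider spread, such as H3.1K9M. Fold changes on this scale understate those of low genes, and ratios are of mean FPKM. The 13109 genes that reached 1 FPKM in 2 or more libraries were tested, and p-values are two-sided. The script was tested on simulated data. Depth was estimated from 369 low genes with a single annotated transcript, in which 97.1% of 830 values were whole fragments within 0.05, where chance gives 10%. It assumes full transcript lengths, so it and the fragment numbers are approximate.

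Gene positions are from GENCODE M21 on GRCm38 and promoters from RefSeq on GRCm38.p6. Of the tested genes 12319 had a position on an autosome, X or Y. All 10 members are named, with up to 4 genes of smallest p from each described list and the 3 genes most alike to each member that passed against a control, skipping predicted, unnamed and small RNA genes. Where the text names fewer than 4, these are the ones that passed or that a result turns on. The other lists are 16 histone demethylases, LSD1-CoREST and PRC1.1 partners, 2-oxoglutarate and hypoxia genes, targets of Kdm3a and Kdm4c, H3K9 and H3K36 methyltransferases, and markers of feeder, embryonic stem and early lineage cells. Members and lists were chosen with earlier results of these data known.

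Alternatives were a pseudocount of 0.1, testing all genes or only those at 5 FPKM, scaling by quantiles or by the median of ratios, array quality weights, a replicate block, the feeder marker mean as covariate, fits over 1 arm and leaving out each library. Leaving the first H3.1K9M library out of comparisons that do not use it, and centring on each gene's chromosome, were added after seeing the data. Ranges given without single libraries include the former.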

Additional observations from a re-analysis of the deposited data

Results flagged for a closer look

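The response of Jmjd1c differed between the histone mutants. In the direct comparison of H3.1K36M with H3.1K9M its log2 fold change was −0.55 (SE 0.0779, limma adjusted p = 0.00286), with 14.7 and 14.5 FPKM in H3.1K36M against 21.5 and 22.0 in H3.1K9M.

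The level of Kdm2a differed between the knockdown lines. In the direct comparison of shSuv39h1 with shSuv39h2 its log2 fold change was −0.57 (SE 0.0809, limma adjusted p = 0.00555), with 14.4 and 13.8 FPKM in shSuv39h1 against 21.6 and 21.3 in shSuv39h2. The median log2 fold change of chromosome 19, which carries Kdm2a, was 0.34 in shSuv39h2 and 0.05 in shSuv39h1, each against shNC. After centring on the chromosome, Kdm2a stood at −0.28 between the knockdown lines and did not pass (limma adjusted p = 0.0837). The parts of the chromosome and of the hairpins in this difference cannot be told apart.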

How the results depend on the processing

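Of 618 values of single members under alternatives, 556 kept their direction and their side of the threshold, 19 lost and 8 gained the call, and 35 changed sign, none of which had passed. Most of the 618 belong to genes that had not passed. Jmjd1c lost its call in 6 of 15 alternatives in H3.1K36M and in 4 of 15 in shSuv39h2. In shSuv39h2 Kdm4a lost it in 3 and Kdm2a in 1. In the direct comparisons Jmjd1c lost it in 1 of 14 and Kdm2a in 4 of 15. The filters and the replicate block leave a fold change as it is, so its direction was fixed there. The number of members called did not move by more than 1.5 times under a pseudocount of 0.1, either filter or either scaling, although Jmjd1c lost its call in shSuv39h2 with quantile scaling and in a fit of the knockdown arm (adjusted p = 0.0533 and 0.0561). In H3.1K9M it was 0, and 0 to 1 without single libraries. In H3.1K36M it was 1, but 2 with array quality weights, which added Kdm4b (adjusted p = 0.00951), 0 with the feeder covariate, under which Kdm4b stood at −0.16 (adjusted p = 0.561), and 0 in a fit of its own arm. The call in H3.1K36M was lost without each library of the comparison in turn. It held without the first H3.1K9M library, which is not part of that comparison. In shSuv39h2 it was 3, and 1 to 5 without single libraries, with Kdm2a alone left without the second shSuv39h2 library. Between H3.1K36M and H3.1K9M it was 1, and 0 to 2 without single libraries. Between the knockdown lines it was 1, but 3 with array quality weights, 2 with the feeder covariate, 0 after centring on chromosomes, and 0 to 1 without single libraries. The cause of these shifts was not tested, and each reduced fit also had fewer libraries.

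Changes of sign in H3.1K9M against H3.1WT came with quantile scaling for Kdm2a (−0.018) and Kdm2b (−0.014), with median-of-ratios scaling and chromosome centring for Kdm4a (0.0072 and 0.018), and with the feeder covariate for Kdm2a (−0.071), Kdm2b (−0.016), Kdm4a (0.018) and Kdm4b (0.17). Without single libraries the log2 fold changes there lay from −0.47 to 0.019 for Kdm1a, −0.062 to 0.0725 for Kdm2a, −0.058 to 0.070 for Kdm2b, −0.035 to 0.16 for Kdm3b, −0.093 to 0.074 for Kdm4a, −0.23 to 0.13 for Kdm4b and −0.24 to 0.54 for Kdm4c. In H3.1K36M the feeder covariate turned Kdm1a (0.12) and Kdm4c (0.26), and Kdm2b lay from −0.12 to 0.0040 without single libraries. In shSuv39h1 the covariate turned Kdm1a (−0.017), quantile scaling Kdm2a (−0.0086) and Kdm2b (−0.028), median-of-ratios scaling Kdm2a (−0.0062) and Kdm2b (−0.043), and centring Kdm2b (−0.050). Without single libraries Kdm2a lay there from −0.014 to 0.11 and Kdm2b from −0.036 to 0.060. In shSuv39h2 Kdm1a lay from −0.057 to 0.023 and Kdm3a from −0.12 to 0.072.

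Over all genes the calls numbered 41 in H3.1K9M (1 to 45 under other settings, 2 to 696 without single libraries), 634 in H3.1K36M (191 to 2983 and 58 to 1189), 19 in shSuv39h1 (3 to 25 and 0 to 59), 1316 in shSuv39h2 (847 to 2221 and 358 to 1998), 1080 between the mutants (507 to 1960 and 209 to 1422), 860 between the knockdown lines (367 to 2103 and 76 to 1440) and 44 between the controls (7 to 175 and 7 to 158). The share of higher calls was 64% in H3.1K36M, against 53.9% with quantile scaling, 57.9% in shSuv39h1, against 42.1% with quantile and 33.3% with median-of-ratios scaling, 53.3% in shSuv39h2, against 40.1% with median-of-ratios scaling, and 67.6% between the mutants, against 55.5% with it. Whether replicate numbers pair the libraries could not be decided. Deviations of same-numbered libraries correlated from −0.384 (H3.1WT with H3.1K9M) to 0.383 (shNC with shSuv39h2) between groups of an arm. Each correlation rests on a single difference of 2 libraries per group. With the replicate number as a block, 1 member was called in H3.1K36M, 3 in shSuv39h2, 1 in each direct comparison and 0 elsewhere, with 7, 439, 3, 1162, 896, 616 and 7 calls over all genes in the order above. Depth limits Kdm4d alone, at about 6.47 to 18.4 fragments.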
